A study of Macaca mulatta with 16 samples.

Results

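The complement genes C1QA, C1QB, C1QC, C1R, C1S, C3, CFB, CFD and SERPING1 were followed in the lungs of fetal rhesus macaques. They are the 9 rows of the deposited count table whose rhesus Ensembl identifier carries one of these symbols, out of 22515 rows, and each symbol matched 1 row. Lung RNA of 16 fetuses was sequenced, with 1 library per fetus. The labels give no strain and no genetic modification. Preterm controls (4 fetuses, numbers 092, 101, 113 and 209) received no intervention and were delivered at 131 to 135 days of gestation, and term controls (2 fetuses, 200 and 201) received none and were delivered at 156 and 157 days. The LPS 16 h group (4 fetuses, 026, 029, 035 and 038) was given 1 mg of LPS, the endotoxin of Gram-negative bacteria, into the amniotic fluid and delivered 16 hours later at 130 to 131 days. The LPS 5 d group (3 fetuses, 239, 240 and 242) had the same injection and was delivered 5 days later at 131 to 134 days. In the LPS + Beta-Ac group (3 fetuses, 248, 249 and 255) the LPS was combined with 0.125 mg/kg of betamethasone acetate, a long-acting corticosteroid, injected into a muscle of the dam, and delivery was after 5 days at 131 to 132 days. The study asked how inflammation before birth, alone or with the corticosteroid, changes the preterm lung. LPS was a single dose, and no group here had Beta-Ac alone or a saline injection.

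Complement is a cascade of plasma and tissue proteins that tags microbes and damaged cells for uptake, attracts leukocytes and can perforate membranes. In the classical pathway, C1q, built from the chains A, B and C, binds to antibody or to surfaces and activates the proteases C1r and C1s, which are held in check by C1 inhibitor, the product of SERPING1. All pathways meet at C3, and the alternative pathway amplifies its cleavage through factor B, which factor D cuts once it is bound to C3b. Most circulating complement comes from the liver, but macrophages make C1q in tissues, and epithelial cells, fibroblasts and macrophages can make C1r, C1s, C3, factor B and C1 inhibitor, several of which are acute-phase genes. Factor D is named adipsin for its expression in fat.

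Levels are given as CPM, the usual read count relative to library size, here with library sizes adjusted by TMM (trimmed mean of M values). CPM is not corrected for transcript length, so levels are compared between fetuses and not between genes. Library totals ran from 30596371 to 48052891 in LPS 16 h and from 20169363 to 28348816 in the other groups. Depth and this group thus cannot be told apart, but the fewest counts behind any value of the 9 genes were 166, for C1QB. The trend test of limma was fitted to all 19199 genes that passed the filter on low values, which included all 9 complement genes. A gene is called where its Benjamini-Hochberg adjusted p over all genes tested is below 0.05 and the difference is at least 2-fold. The comparisons with preterm controls share the same 4 controls and are not independent of each other. Differences in bulk tissue can come from the number of cells of a type or from the RNA per cell, which cannot be told apart.

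LPS was followed by higher levels of nearly the whole group at both times, but with 2 different patterns. C1R, C1S, CFB and SERPING1 were highest at 16 hours, and C1QA, C1QB and C1QC were highest at 5 days with Beta-Ac. C3 stood at a like level at both times, and CFD was lowest at 16 hours. At 16 hours 7 of the 9 genes were called higher than in preterm controls, where 8.3% of all genes tested were, and CFD was called lower, where 6.07% of all genes were. At 5 days after LPS alone 8 of the 9 were called higher, against 2.6% of all genes, and with Beta-Ac 8 of the 9, against 4.05%. In term lungs only CFB was called higher than in preterm lungs, and 1.11% of all genes were. The median log2 difference of the 9 genes from preterm controls was 1.59 at 16 hours, 1.56 at 5 days, 2.09 with Beta-Ac and 0.75 at term, and the medians of all genes tested lay between -0.09 and 0.00. The fetuses with LPS did not overlap the preterm controls in 8 of the 9 genes at 16 hours, against 33.6% of all genes, nor in any of the 9 at 5 days, against 29.2%, or with Beta-Ac, against 30.8%. Counts of the 9 genes together made up 0.167% to 0.197% of a library in preterm controls, 0.254% and 0.322% at term, and 0.543% to 1.08% in the 10 libraries with LPS.

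**Figure D1:**
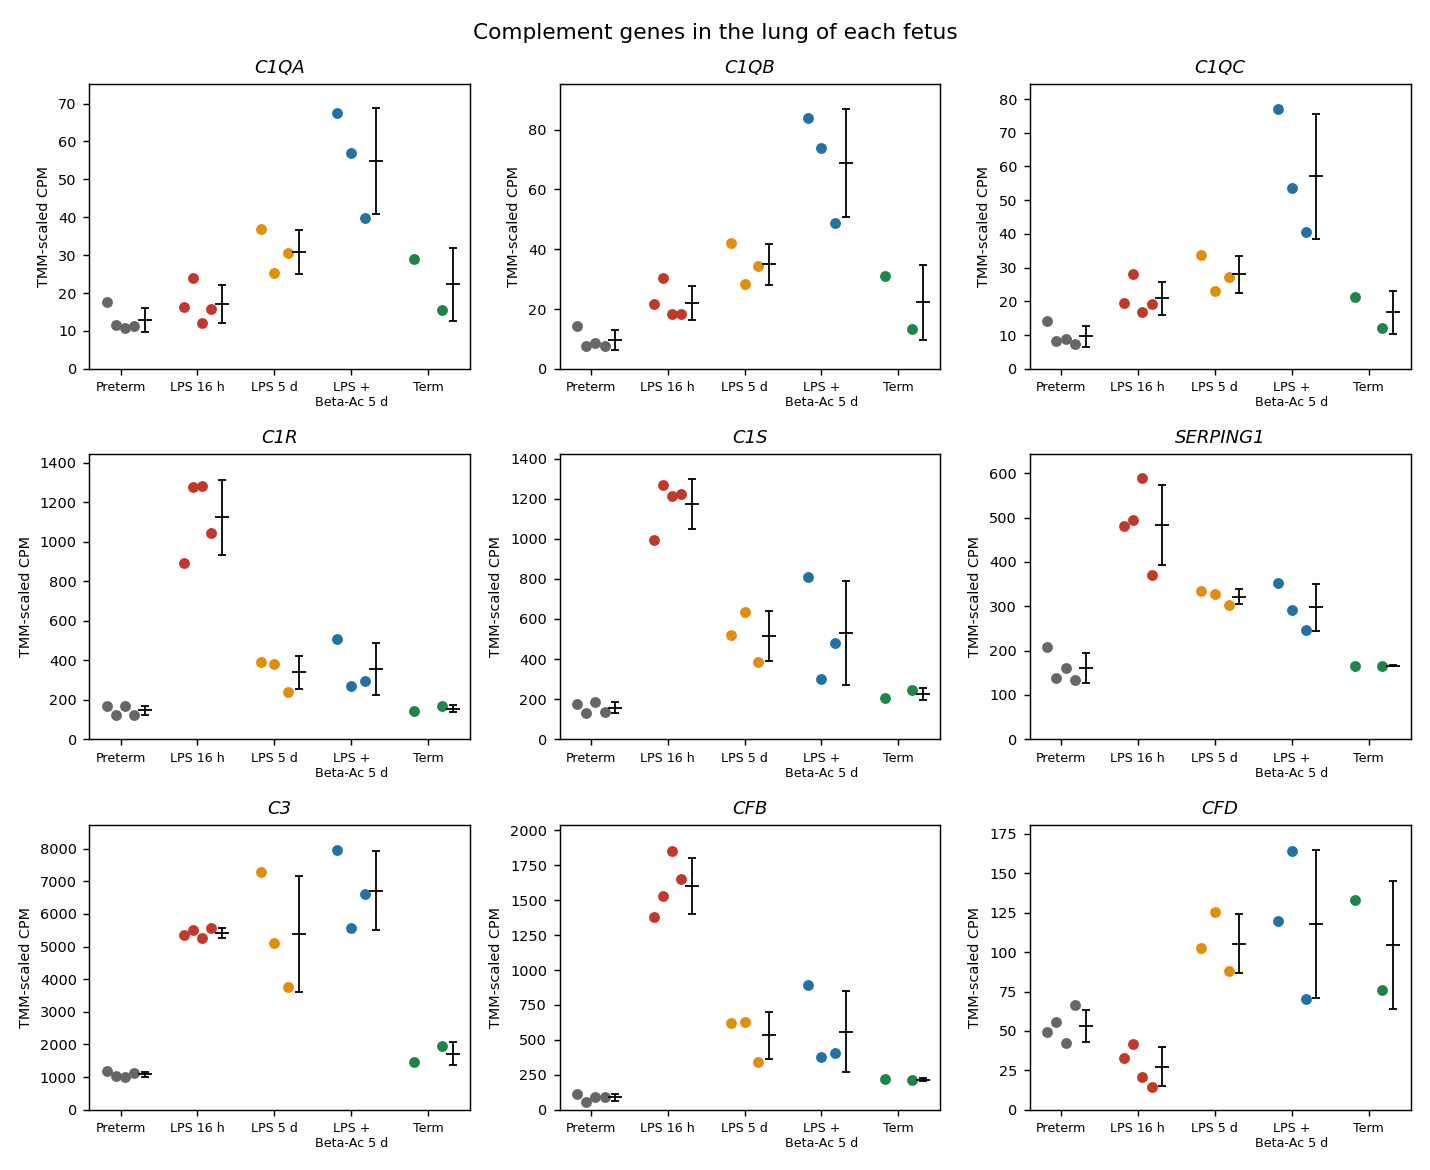
TMM-scaled CPM (linear axis from 0) of the 9 complement genes in each fetus, with a point per fetus in the order of its number and, beside the points, the group mean with its SD. C1R, C1S and CFB stand highest in the 4 LPS 16 h fetuses, the C1q chains in the 3 LPS + Beta-Ac fetuses, and C3 is at 3758 CPM or above in every fetus with LPS and at 1966 CPM or below in every other.

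The genes of the C1q chains had their lowest group mean in preterm controls and their highest in LPS + Beta-Ac. C1QB (ENSMMUG00000058486) was at 14.5, 7.67, 8.73 and 7.64 CPM in the preterm controls, 21.7, 30.3, 18.2 and 18.4 CPM in LPS 16 h, 42.2, 28.2 and 34.4 CPM in LPS 5 d, 83.8, 73.9 and 48.9 CPM in LPS + Beta-Ac, and 31.1 and 13.4 CPM at term. C1QC (ENSMMUG00000020756) was at 14.3, 8.27, 8.69 and 7.35 CPM in the preterm controls, 19.6, 28.1, 16.7 and 19.1 CPM in LPS 16 h, 33.8, 23.0 and 27.1 CPM in LPS 5 d, 77.0, 53.7 and 40.5 CPM in LPS + Beta-Ac, and 21.3 and 12.1 CPM at term. For both genes every fetus with LPS lay above all 4 preterm controls, and every fetus with Beta-Ac lay above every fetus of LPS 5 d. C1QA (ENSMMUG00000063725) was at 17.5, 11.6, 10.9 and 11.2 CPM in the preterm controls, 16.4, 24.1, 12.1 and 15.9 CPM in LPS 16 h, 36.9, 25.3 and 30.6 CPM in LPS 5 d, 67.5, 57.1 and 39.8 CPM in LPS + Beta-Ac, and 29.0 and 15.5 CPM at term. At 16 hours C1QA overlapped the preterm controls, of which fetus 092 was the highest for each of the C1q chains.

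Against preterm controls, C1QB rose by a log2 fold change of 1.22 ± 0.28 (SE) at 16 hours (adjusted p = 0.00317), 1.89 ± 0.30 at 5 days (adjusted p = 0.00112) and 2.85 ± 0.30 with Beta-Ac (adjusted p = 3.28e-05), the last a 7.19-fold difference. C1QC rose by 1.13 ± 0.26 (adjusted p = 0.00270), 1.56 ± 0.28 (adjusted p = 0.00191) and 2.56 ± 0.28 (adjusted p = 3.33e-05). C1QA rose at 5 days, by 1.28 ± 0.27 (adjusted p = 0.00549), and with Beta-Ac, by 2.09 ± 0.27 (adjusted p = 0.000130). At 16 hours its log2 difference was 0.40 ± 0.25, with a 95% interval from -0.13 to 0.93 (adjusted p = 0.225). Scaling by total counts alone put C1QC at 16 hours under 2-fold, with a log2 difference of 0.92. The 2 term lungs differed from each other for all C1q chains, and none was called against preterm controls: the log2 differences were 0.75 for C1QA, 1.13 for C1QB and 0.78 for C1QC, with adjusted p of 0.189, 0.0811 and 0.185. From 16 hours to 5 days, C1QA was higher by 0.88 ± 0.27 (adjusted p = 0.0189), under 2-fold, and C1QB and C1QC by 0.67 and 0.43 (adjusted p = 0.103 and 0.248). The order of the group means was LPS + Beta-Ac, LPS 5 d, term, LPS 16 h and preterm for C1QA and C1QB, with LPS 16 h and term exchanged for C1QC, and the ranges of term overlapped those of both its neighbours for C1QA and C1QB.

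The C1q chains did not keep the same shares of their summed CPM. The share of C1QA was 40.3% ± 2.57 (SD, n = 4) in preterm controls, 28.3% ± 1.81 (n = 4) at 16 hours, 33.0% ± 0.259 (n = 3) at 5 days, 30.4% ± 0.759 (n = 3) with Beta-Ac and 36.7% ± 1.54 (n = 2) at term. All 10 lungs with LPS, at 25.7% to 33.2%, lay below all 6 without it, at 35.6% to 42.9%. Shares of C1QB went the other way, from 29.8% ± 1.60 in preterm controls to 36.9% ± 1.80 at 16 hours, 37.2% ± 0.265 at 5 days and 38.2% ± 1.67 with Beta-Ac. C1QC was highest at 16 hours, at 34.8% ± 0.952, and at 29.9% ± 1.32 in preterm controls. The difference between the chains was not tested. After the group means were removed, the chains moved together from fetus to fetus, with Pearson's r of 0.95 to 0.96 between each pair over the 16 libraries. In the RefSeq annotation of the assembly T2T-MMU8v2.0, C1QB, C1QC and C1QA are direct neighbours in this order.

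Macrophage markers also differed between the groups. The summed CPM of CD68, CD163, MRC1, MARCO, MSR1, CSF1R, FABP4 and MERTK was 75.8 to 114 in preterm controls, 210 to 361 at 16 hours, 133 to 176 at 5 days, 277 to 547 with Beta-Ac, and 122 and 247 at term. Of the 8 markers, 5 were called higher than in preterm controls at 16 hours, 2 at 5 days and 6 with Beta-Ac. Over all genes tested the shares were 8.3%, 2.6% and 4.05%. MARCO, which marks alveolar macrophages, was listed at 0 in at least 1 library. C1q did not follow this sum in the same proportion in every group, since the marker sum was higher at 16 hours than at 5 days and the C1q sum was lower. The markers did not move as 1 set between these times. Of the 8, 2 were higher at 5 days and 2 were called lower, where 8.02% of all genes were. The mean of CD163 went from 96.4 to 23.0 CPM and that of CD68 from 30.6 to 34.9 CPM. The 3 C1q chains together came to 0.219 ± 0.0795 (SD, n = 4) of the marker sum at 16 hours, 0.590 ± 0.0475 (n = 3) at 5 days, 0.457 ± 0.115 (n = 3) with Beta-Ac, 0.350 ± 0.0474 (n = 4) in preterm controls and 0.333 ± 0.00478 (n = 2) at term. The part of the macrophage markers in the C1q result was not tested.

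**Figure D2:**
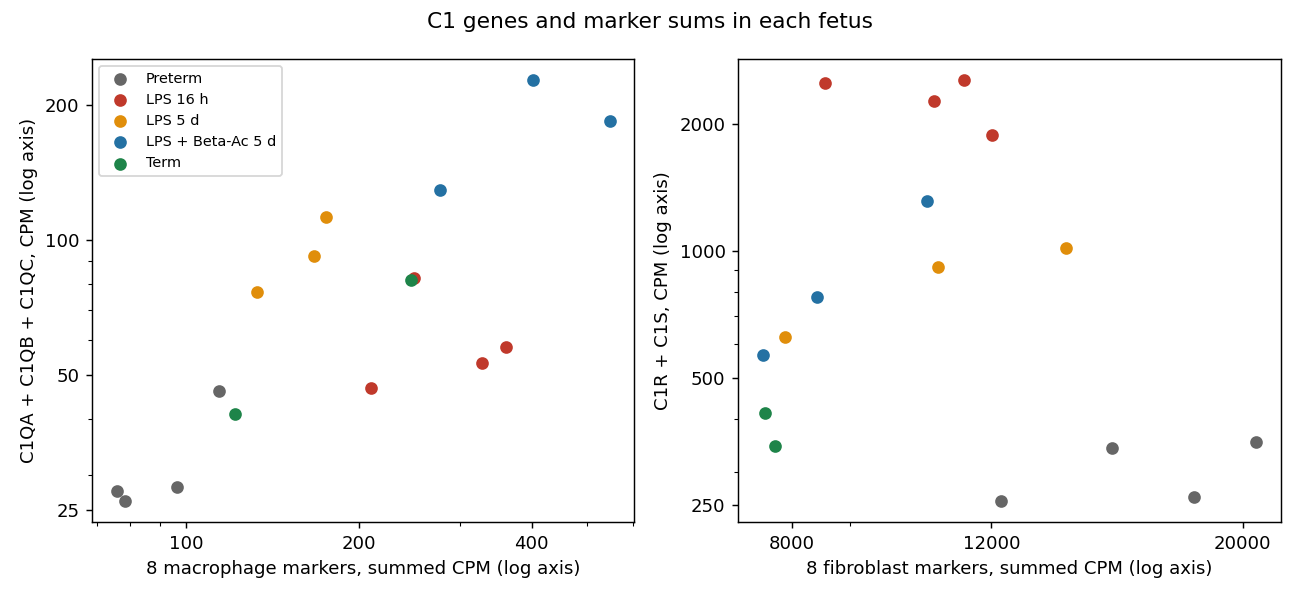
Summed CPM per fetus (log axes) of the C1q chains against 8 macrophage markers, left, and of C1R and C1S against 8 fibroblast markers, right. On the left the 4 LPS 16 h fetuses have marker sums of 210 to 361 CPM with C1q sums of 47.0 to 82.5 CPM, and the 3 LPS 5 d fetuses have C1q sums of 76.6 to 113 CPM at marker sums of 133 to 176 CPM. On the right all LPS fetuses lie above the preterm controls for C1R and C1S, and the fibroblast sums of preterm controls are 12242 to 20545 CPM.

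Unlike the C1q chains, none of which was called between 16 hours and 5 days, the proteases of the C1 complex were lower at the later time. C1R (ENSMMUG00000006470), which activates itself and then C1s, was at 166, 125, 168 and 124 CPM in the preterm controls, 889, 1276, 1282 and 1044 CPM in LPS 16 h, 391, 383 and 240 CPM in LPS 5 d, 506, 267 and 296 CPM in LPS + Beta-Ac, and 141 and 168 CPM at term. C1S (ENSMMUG00000012786), whose product cleaves C4 and C2, was at 175, 131, 185 and 137 CPM in the preterm controls, 993, 1267, 1211 and 1223 CPM in LPS 16 h, 522, 633 and 384 CPM in LPS 5 d, 807, 299 and 483 CPM in LPS + Beta-Ac, and 204 and 245 CPM at term. For both genes the LPS 16 h fetuses lay above every other fetus, and both groups at 5 days lay between LPS 16 h and the controls. At 16 hours C1R was 7.70-fold and C1S 7.53-fold higher than in preterm controls, with log2 fold changes of 2.95 ± 0.21 (SE, adjusted p = 5.34e-08) and 2.91 ± 0.24 (adjusted p = 2.79e-07). By 5 days the difference of C1R from preterm controls was 1.20 ± 0.23 (adjusted p = 0.00306) and that of C1S 1.70 ± 0.26 (adjusted p = 0.000846). With Beta-Ac the log2 fold changes were 1.25 ± 0.23 (adjusted p = 0.00168) and 1.65 ± 0.26 (adjusted p = 0.000630). Without fetus 248, the highest of its group, C1R was at 0.96 and no longer called.

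Between 16 hours and 5 days C1R fell by 1.75 ± 0.23 on the log2 scale (adjusted p = 3.25e-05) and C1S by 1.22 ± 0.26 (adjusted p = 0.00204). The ratio of C1R to C1S was 0.929 ± 0.0246 (SD, n = 4) in preterm controls and 0.954 ± 0.0953 (n = 4) at 16 hours, and 0.660 ± 0.0772 (n = 3) at 5 days, 0.711 ± 0.158 (n = 3) with Beta-Ac and 0.689 ± 0.00598 (n = 2) at term. In LPS + Beta-Ac, fetus 249 had a ratio of 0.893 and the other two 0.626 and 0.613. At term C1R and C1S differed from preterm controls by log2 0.10 and 0.53, with adjusted p of 0.888 and 0.363. C1R and C1S are direct neighbours in the RefSeq annotation of T2T-MMU8v2.0 and paralogs of each other. Their r after removal of the group means was 0.90 over the 16 libraries.

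Fibroblast markers did not rise with C1R and C1S. The sum of PDGFRA, COL1A1, COL1A2, COL3A1, DCN, LUM, PDGFRB and TCF21 was 12242 to 20545 CPM in preterm controls, 8566 to 12021 at 16 hours, 7886 to 13957 at 5 days, 7543 to 10534 with Beta-Ac, and 7580 and 7727 at term. At 16 hours 2 of the 8 markers were called lower, as were 6.07% of all genes. Alveolar type 2 cell markers had higher sums in the lungs with LPS, 6352 to 13734 CPM at 16 hours and 10220 to 16352 CPM at 5 days with or without Beta-Ac, than in preterm controls, at 5092 to 7731 CPM, and the ranges overlapped at 16 hours. The sums at term were 11262 and 13035 CPM, so sums above those of preterm controls were not confined to lungs with LPS. Most liver transcripts were near 0, with ALB at 14.8 CPM or less, FGA at 0 in all libraries and APOA2, FGB and AHSG at or below 0.319 CPM, while SERPINA1, which is not confined to liver, ran from 36.5 to 552 CPM. The part of the fibroblast and alveolar type 2 markers in these results was not tested.

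SERPING1 (ENSMMUG00000012618), the gene of C1 inhibitor, moved in the same direction as the proteases it inhibits, with smaller fold changes. It was at 208, 139, 162 and 134 CPM in the preterm controls, 480, 495, 589 and 370 CPM in LPS 16 h, 335, 328 and 303 CPM in LPS 5 d, 353, 292 and 247 CPM in LPS + Beta-Ac, and 165 and 166 CPM at term. All 10 fetuses with LPS lay above all 6 without it. The log2 fold change against preterm controls was 1.59 ± 0.16 (SE) at 16 hours (adjusted p = 1.42e-06) and 1.02 ± 0.17 at 5 days (adjusted p = 0.00127). With Beta-Ac it was 0.89 ± 0.17 (adjusted p = 0.00206), under 2-fold and so not called, and at term 0.07 ± 0.19 (adjusted p = 0.898). The value at 5 days was just past 2-fold and fell under it without fetus 239, 101 or 209, to 0.99, 0.96 and 0.94. From 16 hours to 5 days SERPING1 differed by -0.57 ± 0.17 (adjusted p = 0.0163), also under 2-fold. The ratio of SERPING1 to the sum of C1R and C1S was 0.532 ± 0.0629 (SD, n = 4) in preterm controls, 0.212 ± 0.0413 (n = 4) at 16 hours, 0.391 ± 0.0840 (n = 3) at 5 days, 0.367 ± 0.130 (n = 3) with Beta-Ac and 0.440 ± 0.0520 (n = 2) at term. At 16 hours the highest ratio, 0.255, was below every ratio of the other groups, of which the lowest was 0.269.

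**Figure D3:**
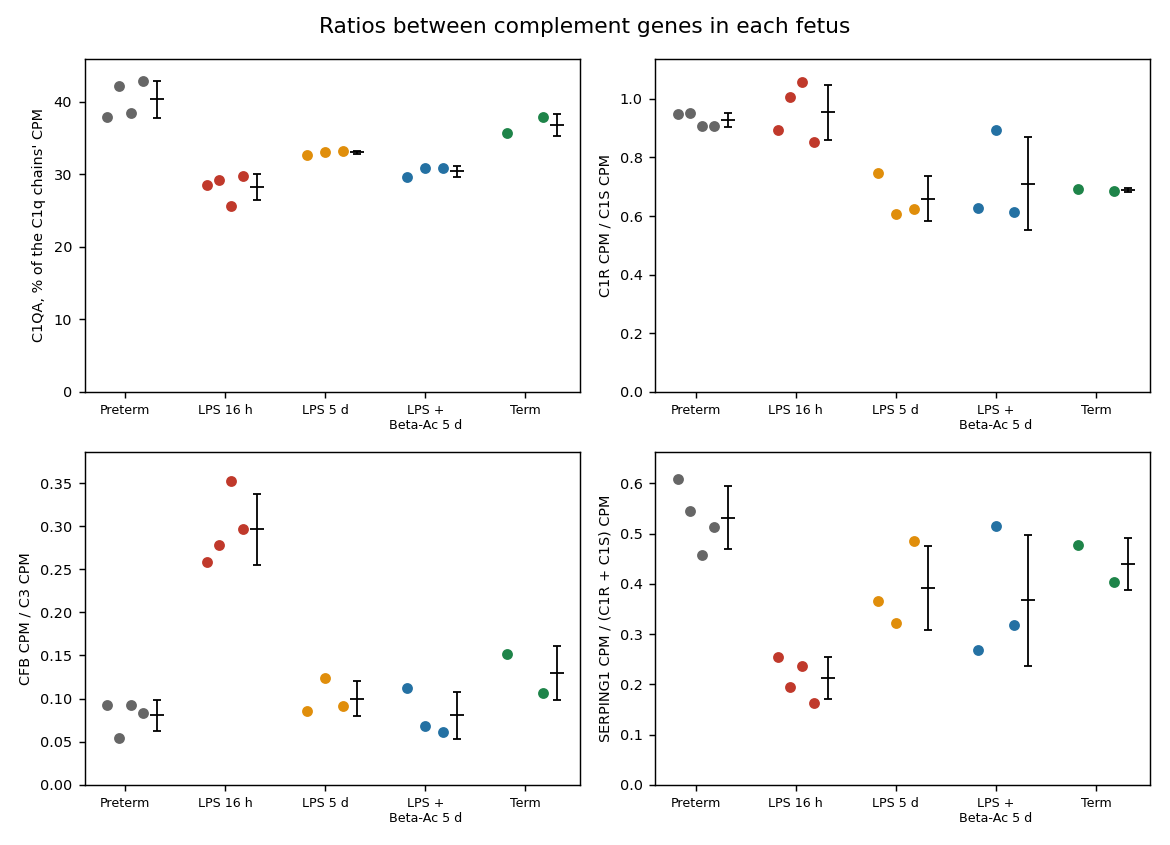
Ratios of CPM within each fetus (linear axes from 0): the share of C1QA in the C1q chains, C1R to C1S, CFB to C3, and SERPING1 to the sum of C1R and C1S, with a point per fetus and the group mean with its SD. CFB to C3 is 0.258 or above in the 4 LPS 16 h fetuses and 0.151 or below in all others, and SERPING1 to C1R and C1S is lowest in LPS 16 h.

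C3 (ENSMMUG00000008693), the protein on which the complement pathways converge, was raised to much the same level at both times. It was at 1194, 1038, 998 and 1112 CPM in the preterm controls, 5340, 5497, 5250 and 5583 CPM in LPS 16 h, 7279, 5101 and 3758 CPM in LPS 5 d, 7970, 5558 and 6610 CPM in LPS + Beta-Ac, and 1467 and 1966 CPM at term. No fetus with LPS overlapped a control, and the LPS 16 h fetuses lay within a narrow range while those of LPS 5 d spread around it. Log2 fold changes against preterm controls were 2.32 ± 0.17 (SE, adjusted p = 5.87e-08) at 16 hours, 2.26 ± 0.18 (adjusted p = 1.90e-05) at 5 days and 2.62 ± 0.18 (adjusted p = 2.47e-06) with Beta-Ac, or 5.00-fold, 4.79-fold and 6.13-fold. At term it was 0.65 ± 0.21 (adjusted p = 0.0964), although both term fetuses lay above all preterm controls. LPS 5 d and LPS 16 h differed by -0.06, with a 95% interval from -0.45 to 0.33 (adjusted p = 0.826), and total count scaling turned this difference to 0.13.

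CFB (ENSMMUG00000000729), the gene of factor B, had the largest difference of the 9 genes at 16 hours. It was at 110, 56.8, 92.1 and 92.9 CPM in the preterm controls, 1379, 1527, 1853 and 1654 CPM in LPS 16 h, 622, 631 and 341 CPM in LPS 5 d, 893, 380 and 403 CPM in LPS + Beta-Ac, and 222 and 210 CPM at term. The groups fell into an order without overlap: preterm, term, both groups at 5 days, and LPS 16 h. CFB rose 18.6-fold over preterm controls at 16 hours (log2 4.22 ± 0.27, adjusted p = 2.87e-08), 5.98-fold at 5 days (2.58 ± 0.30, adjusted p = 0.000292) and 6.02-fold with Beta-Ac (2.59 ± 0.30, adjusted p = 6.23e-05). Between 16 hours and 5 days it fell by 1.64 ± 0.30 on the log2 scale (adjusted p = 0.000615). Its ratio to C3 was 0.296 ± 0.0408 (SD, n = 4) at 16 hours and 0.0807 ± 0.0178 (n = 4) in preterm controls, 0.100 ± 0.0208 (n = 3) at 5 days, 0.0805 ± 0.0276 (n = 3) with Beta-Ac and 0.129 ± 0.0315 (n = 2) at term.

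In term lungs CFB was the only one of the 9 genes called, at a log2 fold change of 1.34 ± 0.34 over preterm controls (adjusted p = 0.0411). This call rests on a margin: it was lost without LPS 16 h fetus 026 or 038, LPS 5 d fetus 239, preterm fetus 092, 101 or 113, or either term fetus, with adjusted p of up to 0.209 and log2 fold changes of 1.14 to 1.46 over all single omissions. CFB and C2, a paralog with the matching role in the classical pathway, are direct neighbours in the RefSeq annotation, and no row of the table carried the symbol C2.

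CFD (ENSMMUG00000028947), the gene of factor D, went against the rest of the group at 16 hours. It was at 49.2, 55.8, 42.2 and 66.2 CPM in the preterm controls, 32.7, 41.6, 20.9 and 14.3 CPM in LPS 16 h, 102, 126 and 88.1 CPM in LPS 5 d, 120, 164 and 70.1 CPM in LPS + Beta-Ac, and 133 and 75.7 CPM at term. The highest LPS 16 h fetus, at 41.6 CPM, lay just under the lowest preterm control, at 42.2 CPM, and both groups at 5 days and term lay above all preterm controls. At 16 hours CFD fell by 1.06 ± 0.32 on the log2 scale (adjusted p = 0.0182). The call was lost without LPS 16 h fetus 035 or 038 or preterm fetus 209, at log2 values of -0.97, -0.79 and -0.95. At 5 days the log2 difference from preterm controls was 0.99 ± 0.35 (adjusted p = 0.0743) and at term 0.93 ± 0.39 (adjusted p = 0.214), and neither was called. With Beta-Ac CFD rose by 1.08 ± 0.35 (adjusted p = 0.0462), a call that was lost without any 1 of 10 of the fetuses, among them 248 and 249, with adjusted p of up to 0.191.

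The difference in CFD between LPS 5 d and LPS 16 h was larger than either difference from preterm controls, at a log2 fold change of 2.04 ± 0.35 (adjusted p = 0.000392), or 4.12-fold. The 4 adipocyte markers ADIPOQ, LEP, PLIN1 and FABP4 summed to 5.88 to 9.29 CPM in preterm controls, 5.22 to 7.62 at 16 hours, 5.48 to 9.17 at 5 days, 4.67 to 6.95 with Beta-Ac, and 5.92 and 7.34 at term. ADIPOQ and LEP were at or near 0, reaching at most 0.0384 and 0.0724 CPM in any library, and were not tested. Of the 2 markers tested, PLIN1, a coat protein of fat droplets, moved in the same direction as CFD from preterm controls to 16 hours and from there to 5 days. Both differences were under 2-fold and without overlap between the groups. It was at 5.66 ± 0.722 CPM (SD, n = 4) in preterm controls, 3.61 ± 0.0844 CPM (n = 4) at 16 hours and 5.27 ± 0.503 CPM (n = 3) at 5 days, with log2 differences of -0.63 ± 0.15 from preterm controls to 16 hours (adjusted p = 0.00350) and 0.54 ± 0.16 from 16 hours to 5 days (adjusted p = 0.0170). Its mean at 5 days was below that of preterm controls, where CFD was above. FABP4, the other marker tested, which macrophages also express, moved in the opposite direction at both steps, overlapped between these groups and was not called. With Beta-Ac neither PLIN1 nor FABP4 was higher than in preterm controls (median log2 difference of the 2, -0.44), where CFD was called higher. The summed neutrophil markers were 1354 to 2104 CPM at 16 hours and 22.0 to 365 CPM in all other lungs, so that CFD was lowest where this sum was highest. The part of the adipocyte and neutrophil markers in this difference was not tested.

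**Figure D4:**
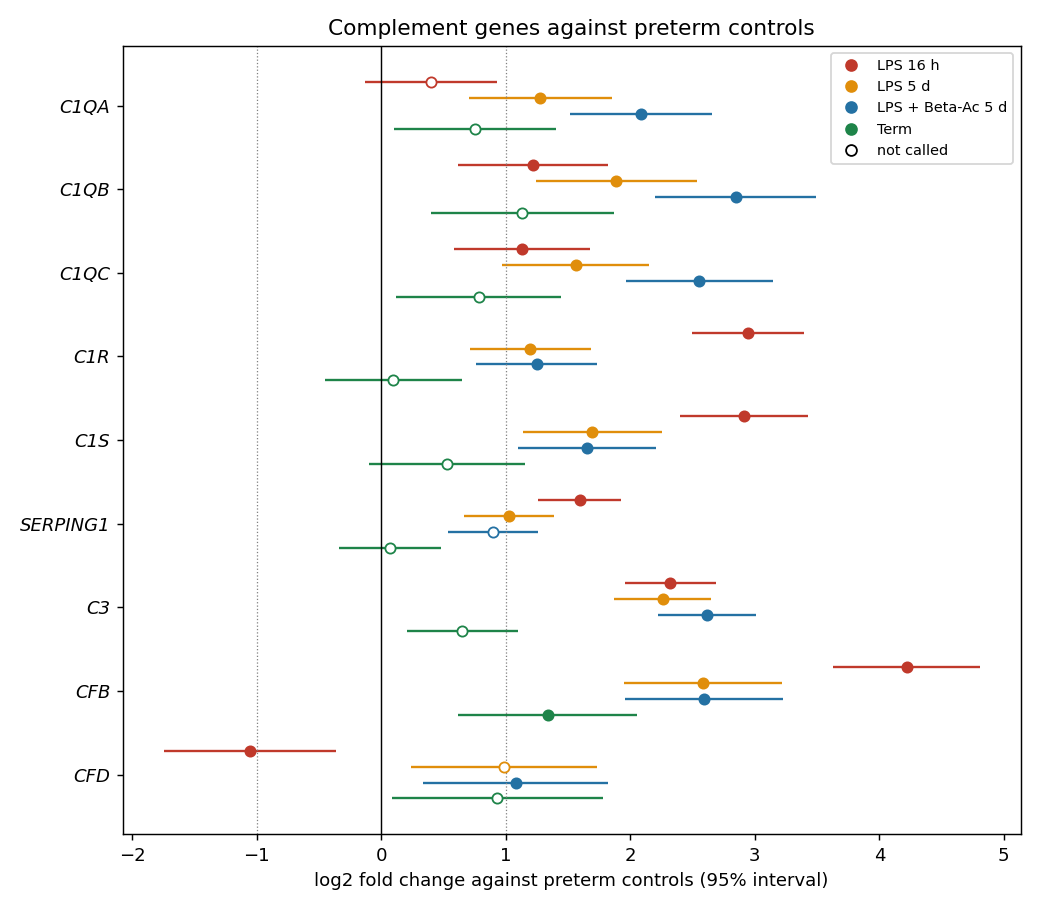
Log2 fold changes of the 9 genes against preterm controls with 95% intervals, for LPS 16 h, LPS 5 d, LPS + Beta-Ac and term. Filled points are called (adjusted p below 0.05 and at least 2-fold, dotted lines) and open points are not. C1R, C1S and CFB have their largest values at 16 hours, the C1q chains with Beta-Ac, and CFD lies on both sides of 0.

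From 16 hours to 5 days after LPS, C1R, C1S and CFB were called lower, as were 8.02% of all genes tested, and CFD was called higher, as were 6.61%. SERPING1 was lower and C1QA higher at the later time with an adjusted p below 0.05 but under 2-fold, and the differences of C3, C1QB and C1QC did not pass the test. None of C1R, C1S, CFB and SERPING1 returned to the range of the preterm controls by 5 days. The summed C1q chains came to 0.0264 ± 0.00633 (SD, n = 4) of the sum of C1R and C1S at 16 hours and to 0.116 ± 0.0368 (n = 3) at 5 days, 0.222 ± 0.0900 (n = 3) with Beta-Ac, 0.106 ± 0.0229 (n = 4) in preterm controls and 0.168 ± 0.0964 (n = 2) at term, and the 4 ratios at 16 hours, at 0.0324 or less, lay below all others.

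With Beta-Ac added to LPS, no difference of the 9 genes from LPS alone passed the threshold at 5 days. By limma-trend 0 of the 9 genes were called, and 0 by limma-voom, while 0.104% of all genes were called higher. At an unadjusted p below 0.05 there were 3, the C1q chains, against 4.82% of all genes. C1QA, C1QB and C1QC were higher with Beta-Ac than with LPS alone by log2 0.81 ± 0.29, 0.96 ± 0.32 and 0.99 ± 0.29, with 95% intervals of 0.19 to 1.42, 0.27 to 1.65 and 0.37 to 1.62 and adjusted p of 0.666, 0.582 and 0.399. All 3 fetuses with Beta-Ac lay above all 3 with LPS alone for these 3 genes, and 11.4% of all genes did not overlap in this comparison. For C1R the difference was 0.05 (95% interval -0.47 to 0.57), for C1S -0.04 (-0.63 to 0.55), for CFB 0.01 (-0.67 to 0.69), for CFD 0.09 (-0.70 to 0.89) and for SERPING1 -0.13 (-0.51 to 0.26). The fetuses of the groups overlapped for these 5 genes, and the intervals do not exclude differences of up to the sizes given. C3 was higher with Beta-Ac by 0.36 (-0.06 to 0.78), with overlapping fetuses.

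Against term lungs the exposed preterm lungs at 5 days were mostly higher in these 9 complement genes, with few calls. LPS 16 h was not tested against term. After LPS alone C3 was called, at log2 1.61 ± 0.22 (adjusted p = 0.0382), where 0.0313% of all genes were called higher. With Beta-Ac, C1QB (1.71 ± 0.36, adjusted p = 0.0439), C1QC (1.77 ± 0.33, adjusted p = 0.0240) and C3 (1.97 ± 0.22, adjusted p = 0.00130) were called, where 0.375% were. All 9 genes had positive differences from term in both comparisons, from 0.05 for CFD after LPS to 1.97 for C3 with Beta-Ac, and CFD turned negative under total count scaling after LPS. A fit of only the groups compared called none of the 9 genes in either comparison with term.

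Other genes whose deviations from the group means most resembled those of the complement genes were sought among 11731 genes with a mean of at least 5 CPM over the 16 libraries. For the mean of the C1q chains they were CD4 (r = 0.90), ACTG2 (r = 0.90) and GTF2E2 (r = 0.89), and for the mean of C1R and C1S they were ARHGEF5 (r = 0.84), CHI3L2 (r = 0.83) and XBP1 (r = 0.81). For C3 they were SFRP4 (r = 0.82), LAYN (r = 0.79) and CFI (r = 0.77), the last the gene of the protease factor I that inactivates C3b. For CFB they were ARHGEF5 (r = 0.86), DNAJC21 (r = 0.82) and EIF4G1 (r = 0.82), for CFD ALKBH7 (r = 0.94), BLVRB (r = 0.91) and BOLA2B (r = 0.91), and for SERPING1 TNFSF8 (r = 0.85), ZNF646 (r = 0.85) and FOXF2 (r = 0.84). Over all animals without removal of the group means, CD4 kept a like value with C1q (r = 0.94), whereas ACTG2 had r = -0.31. Among the complement genes themselves, C1R and CFB had r = 0.86, C1S and CFB r = 0.83, C1R and C3 r = 0.67, and C1QA and C1S r = 0.07. The genes of a library share its depth and scaling, and these values describe the 16 libraries only. Taking the 3 highest r among 11731 genes favours high values by selection, and no r was tested.

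The rest of the complement pathway was read from 56 other symbols, of which 48 had a row and 41 were tested. Against preterm controls 13 of the 41 were called higher and 1 lower at 16 hours, where 8.3% and 6.07% of all genes were. At 5 days 5 were called higher, against 2.6% of all genes, and with Beta-Ac 9, against 4.05%. At term 4 were called higher and 1 lower, against 1.11% and 0.953%. The medians of the 41 log2 differences were 0.50, 0.20, 0.30 and 0.14, below those of the 9 genes. COLEC11, C2, C4A and C4B were not analysed here.

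Receptors made up most of the higher calls of these genes. Called higher were 7 of 13 at 16 hours (8.3% of all genes), 4 at 5 days (2.6%), 7 with Beta-Ac (4.05%) and 3 at term (1.11%). C3AR1, the receptor of the C3a fragment, was at 2.44 ± 0.544 CPM (SD, n = 4) in preterm controls, 85.5 ± 17.2 CPM (n = 4) at 16 hours, 8.77 ± 1.97 CPM (n = 3) at 5 days, 29.7 ± 8.61 CPM (n = 3) with Beta-Ac and 9.14 ± 6.52 CPM (n = 2) at term, and was called in all 4 comparisons with preterm controls. C5AR1, the receptor of C5a, was at 9.84 ± 1.17, 62.5 ± 8.01, 15.5 ± 3.31, 39.4 ± 10.2 and 22.6 ± 7.60 CPM in the same order. Of the 41 genes only C5AR1 was called higher with Beta-Ac than with LPS alone, by log2 1.33 ± 0.22 (adjusted p = 0.0327), where 0.104% of all genes were. A fit of only the groups compared called no gene at all in this comparison, so the call of C5AR1 was lost there. ITGAM and ITGAX, which with ITGB2 form the receptors CR3 and CR4 for cleaved C3b, were higher at 16 hours by log2 3.50 and 2.67 and with Beta-Ac by 2.71 and 3.48. VSIG4, a C3b receptor of tissue macrophages, had a lower mean at 16 hours than in preterm controls, unlike C3AR1 and C5AR1 but like CFD. VSIG4 was at 2.23 ± 0.977 CPM in preterm controls, 1.07 ± 0.520 CPM at 16 hours, 5.40 ± 0.634 CPM at 5 days and 18.8 ± 7.23 CPM with Beta-Ac, where it was called (log2 3.07 ± 0.47, adjusted p = 0.000562). LAIR1, an inhibitory leukocyte receptor that binds C1q as well as collagen, was called higher at all 3 exposures, by log2 1.85, 1.70 and 2.26. The leukocyte markers PTPRC and CORO1A summed to 44.2 to 63.3 CPM in preterm controls, 208 to 280 CPM at 16 hours, 85.0 to 98.5 CPM at 5 days and 107 to 174 CPM with Beta-Ac, and their part in the receptor values was not tested.

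Of 6 recognition molecules other than C1q that were tested, 2 were called at 16 hours, both higher, as were 8.3% of all genes. PTX3, a soluble pattern receptor that binds C1q, was at 3.29 ± 0.239 CPM (SD, n = 4) in preterm controls and 547 ± 211 CPM (n = 4) at 16 hours (log2 7.26 ± 0.27, adjusted p = 2.47e-10), and at 4.18 ± 0.658 CPM (n = 3) at 5 days. FCN1, a ficolin of monocytes and neutrophils, rose by 5.56 ± 0.49 at 16 hours (adjusted p = 5.98e-07) and by 1.86 ± 0.52 with Beta-Ac (adjusted p = 0.0240). The other 4, named here to complete the list, stayed under 2-fold. FCN3, a ficolin made in lung and liver, was at 207 to 233 CPM in preterm controls and 76.5 to 176 CPM at 16 hours (log2 -0.87 ± 0.20, adjusted p = 0.00311), and the collectin COLEC10 was at 16.4 ± 1.94 CPM (SD, n = 4) and 9.52 ± 1.07 CPM (n = 4) (log2 -0.78 ± 0.13, adjusted p = 0.000258), both lower without overlap. COLEC12, a membrane collectin, was higher by 0.50 ± 0.17 (adjusted p = 0.0260), and FCN2 differed by 0.09 ± 0.19 (adjusted p = 0.760). CFP, the gene of properdin, which stabilizes the C3 convertase of the alternative pathway, rose at 16 hours by 1.38 ± 0.17 (adjusted p = 1.51e-05). C1RL, a relative of C1R, rose at 16 hours by 1.10 ± 0.23 (adjusted p = 0.00169). Of the terminal pathway, C7 rose at 16 hours by 1.32 ± 0.42 (adjusted p = 0.0226). Its fetuses were widely spread at 16 hours, at 561 to 2356 CPM, against 361 to 523 CPM in preterm controls and 640 and 662 CPM at term. C5, the source of C5a, rose 2.83-fold at 5 days (adjusted p = 0.000546) and 2.58-fold with Beta-Ac (adjusted p = 0.000566).

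Among regulators of complement, 1 of 7 soluble and 1 of 7 membrane regulators were called at 16 hours, where 8.3% of all genes were called higher and 6.07% lower. Of the soluble regulators, C4BPA, which restrains the classical C3 convertase, was called higher, at log2 1.27 ± 0.26 (adjusted p = 0.00125), and it was also called at term, at 1.22 ± 0.31 (adjusted p = 0.0441). CFI, named here for its role and not for its values, had log2 differences of 0.57 at 16 hours, 0.59 at 5 days and 0.75 with Beta-Ac, all under 2-fold. Of the membrane regulators CSMD2 was called lower at 16 hours, at a level under 1 CPM in the mean of each group, and SUSD4 at term, by -1.01 ± 0.27 (adjusted p = 0.0486), where 0.953% of all genes were called lower. CD55 differed by 0.97, CD46 by 0.10 and CD59 by -0.57 at 16 hours, and none of these was called. The difference of CD55 was just under 2-fold, from 101 to 155 CPM in preterm controls to 192 to 303 CPM. Without the fold limit, 4 of 7 soluble and 4 of 7 membrane regulators had an adjusted p below 0.05 at 16 hours, as had 7359 of the 19199 genes tested.

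**Figure D5:**
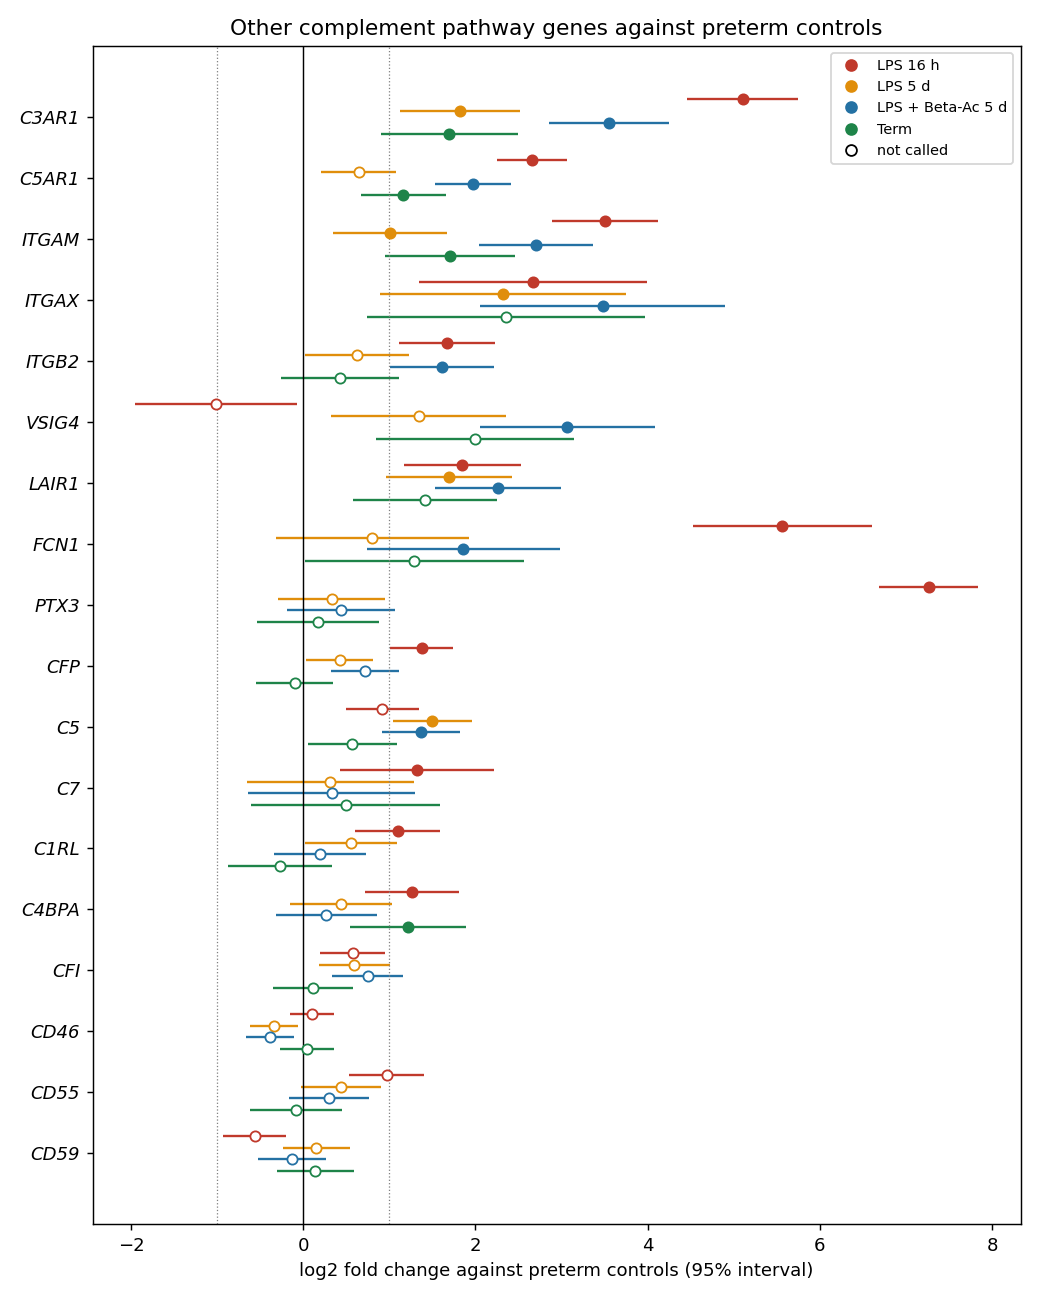
Log2 fold changes with 95% intervals against preterm controls for 18 other genes of the complement pathway, from receptors at the top to membrane regulators at the bottom (filled points called, open points not). CFI, CD46, CD55 and CD59 were added for their role after their values were seen. PTX3 (7.26), FCN1 (5.56) and C3AR1 (5.10) have the largest differences, all at 16 hours, and the regulators CFI, CD46, CD55 and CD59 lie within 2-fold at every exposure.

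Cytokines and transcription factors known to act on complement genes were also higher in the lungs at 16 hours. Of 12 tested, 11 were called higher at 16 hours, 2 at 5 days, 4 with Beta-Ac and 4 at term. Over all genes tested the shares were 8.3%, 2.6%, 4.05% and 1.11% in the same order. IL6 had a log2 difference of 10.16, OSM 8.14 and TNF 7.54 at 16 hours, and STAT3 2.01, CEBPD 3.22 and IRF1 3.08. At 5 days OSM was called at 2.30 and IL1B at 2.71, and STAT3, at 0.41, was not. The part of these genes in the levels of C1R, C1S, C3, CFB and SERPING1 was not tested.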

How the data were processed

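The authors sequenced poly(A)-selected lung RNA of each fetus as 75 bp paired-end reads, assigned them with kallisto to the rhesus build Mmul_10, summed them per gene with tximport and compared groups with DESeq2. No source used here gives tool versions or the annotation release. The authors deposited whole-number counts per Ensembl gene, neither scaled nor filtered. The layout of the table could not be read by the automatic unit check, so its unit was recorded as other, and limma took the place of a count model. Symbols came from a gene name table by Ensembl ID (17256 of 22515 rows).

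Counts were scaled by TMM, turned into log2 CPM (prior count 2) and fitted with limma 3.58.1 in R 4.3.3 (trend, robust, 1 mean per group, all 16 libraries) for 8 comparisons. The filter on low values asked for a sum of 15 counts and for 0.371 CPM in 2 or more libraries and left 19199 genes. Tests were two-sided and p-values adjusted within a comparison. The procedure was tested on simulated data. All 9 complement genes are named, with pathway genes called against preterm controls, the 3 genes most like each unit in deviation from group means, and a few named for their role. The members and lists were chosen with earlier results of these data known. Alternatives were other scalings, filter, prior count, voom, 2-group fits, no fold limit, thinned counts (added after seeing the data) and single omissions. No pair of replicates agreed within sampling noise. Some pathway genes are not reported here.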

Additional observations from a re-analysis of the deposited data

Results flagged for a closer look

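In the preterm controls, fetus 092 stood apart for C1QA, at a log2 CPM of 4.14 where the nearest other control was at 3.55 and the lowest at 3.45, so that the gap to the nearest other control took up 0.853 of the group's range, above Dixon's critical value for 4 samples. This was 1 of 18 gene and group combinations examined this way, and chance flags about 1 in 20. Without fetus 092, C1QA at 16 hours differed from the preterm controls by 0.56 on the log2 scale (adjusted p = 0.106) and was still not called.

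The effect of LPS differed between 5 days and 16 hours, by the test of the difference itself in limma, for C1R (-1.75, lower at 5 days in 3 of 3 fetuses than in any at 16 hours), C1S (-1.22), CFB (-1.64) and CFD (2.04, higher in 3 of 3), each on the log2 scale. These 4 genes remained called in each of the alternatives and single omissions run.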

How the results depend on the processing

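Over 8 alternatives and 9 genes in 8 comparisons, 562 of 576 log2 differences kept their direction and their side of the threshold, 7 lost the call, 5 gained it and 2 turned sign. With total count scaling C3 in LPS 5 d against LPS 16 h turned to 0.13 and CFD in LPS 5 d against term to -0.0302. With a fit of only the groups compared, the number of called genes became 0 for term against preterm, 0 for LPS 5 d against term and 0 for LPS + Beta-Ac against term. The smaller fits have fewer residual degrees of freedom and also their own estimate of the spread. Their parts in the lost calls were not tested. Leaving out 1 fetus at a time, the number called ranged from 7 to 8 for LPS 16 h, 7 to 9 for LPS 5 d, 6 to 9 for LPS + Beta-Ac and 0 to 1 for term, each against preterm, 4 to 5 for LPS 5 d against LPS 16 h, 0 to 1 for LPS 5 d against term, 1 to 4 for LPS + Beta-Ac against term and 0 to 0 for LPS + Beta-Ac against LPS 5 d. Of 1152 differences under single omissions, 1083 kept direction and side of the threshold and 15 turned sign. Of the latter, C1R, C1S, CFB and CFD in LPS + Beta-Ac against LPS 5 d ranged from -0.23 to 0.23, -0.40 to 0.31, -0.39 to 0.23 and -0.19 to 0.42, C3 in LPS 5 d against LPS 16 h from -0.31 to 0.17, CFD against term from -0.35 to 0.46 for LPS 5 d and from -0.26 to 0.55 for LPS + Beta-Ac, and C1R and SERPING1 in term against preterm from -0.0262 to 0.22 and from -0.0131 to 0.20, none of them called. C1QB in LPS + Beta-Ac against term lost its call under 12 of the 16 omissions (all but 029, 255, 092 and 200), down to 1.11 without 201, C1QC lost it without 248, 249 or 201, and C3 in LPS 5 d against term without 239, 240, 092, 209 or 200. CFD with Beta-Ac against preterm kept its call only without 029, 038, 255, 209, 200 or 201. Where an omission left 1 term fetus, that fetus is assumed to vary like the other groups. Thinning every library to the lowest total left 8 of 9 called for LPS 16 h against preterm and 4 for LPS 5 d against LPS 16 h, the same numbers as before thinning. With Beta-Ac against preterm it left 7 of 9, without CFD. No paired analysis was possible because the groups have no animal number in common.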
